A study of Drosophila melanogaster with 2 samples.

Results

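Weak candidate regions whose highest point lay in protein-coding sequence were examined in a chromatin immunoprecipitation sequencing (ChIP-seq) experiment on the homeodomain protein Buttonless (btn) of the fly Drosophila melanogaster. The series holds 1 group of 2 biological replicates, numbered 2 and 3 in the labels: whole embryos of both sexes, 0 to 14 h old, from a stable transgenic line in which btn carries eGFP at its C-terminus. Chromatin was sonicated to fragments of 200 to 800 bp and recovered with an antibody to GFP, although the antibody field of the labels names btn. No untagged embryos and no other stage or genotype were analysed here, and the sources used here do not give the promoter that drives the transgene. A candidate is a region that the authors passed to their reproducibility analysis, and an optimal region is one that passed it. Of the 30000 candidates that the authors called on the pooled replicates, 27394 overlapped none of the 2153 optimal regions. The summit lay in the coding sequence (CDS) of a protein-coding gene in 7950 of these, which is 29.0% (exact 95% interval 28.5 to 29.6%), and outside CDS in the other 19444, in introns, untranslated regions, noncoding exons or intergenic sequence. Signal, the authors' own peak value, ranged from 19.2 to 70.3 among the coding-exon candidates. They were chosen by pooled signal and by position: by having no overlap with an optimal region, which depends on the signal of both libraries, and by a summit in CDS. Their number, signal and coding position are therefore given as description only. With 1 group there is no contrast between samples, and regions are not replicates. Intervals therefore cover counts of regions only, and the spread between libraries is shown by each replicate's own candidate list.

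The immunoprecipitate of a transcription factor holds fragments from bound sites and also fragments recovered without it, and lists of this kind are called at a lenient threshold so that a reproducibility analysis sees both. Homeodomain proteins are known to bind short words rich in A and T, most often in enhancers and promoters. Coding exons of the fly are richer in G and C than introns and intergenic DNA, above all at the third position of codons, where a change of base often leaves the amino acid unchanged. Btn itself is known from the dorsal median cells, a small group of mesodermal cells along the midline of the embryo, whereas the chromatin here came from all cells of the embryo.

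The sequences below are examples from the strongest candidates and do not stand for all of these regions. They run from 50 bp before to 50 bp after the summit of strong coding-exon candidates with an overlapping candidate in both replicates, read on the coding strand from the Release 6 genome of RefSeq (build dm6). Capitals mark G or C at the third position of codons in the coding exon that holds the summit, counted in the reading frame of the annotated transcript. The genes are krz (kurtz, a beta-arrestin), at chr3R:32051763-32051863 on the minus strand, Sh3beta (an SH3-binding protein gene), at chr3L:7367892-7367992 on the minus strand, corto (a chromatin protein that acts with Polycomb and trithorax group genes), at chr3R:5085553-5085653 on the minus strand, and pyd (polychaetoid, the ZO-1 protein of cell junctions), at chr3R:8930981-8931081 on the minus strand.
krz: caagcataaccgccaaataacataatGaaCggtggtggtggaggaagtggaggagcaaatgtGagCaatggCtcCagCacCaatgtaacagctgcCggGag
Sh3beta: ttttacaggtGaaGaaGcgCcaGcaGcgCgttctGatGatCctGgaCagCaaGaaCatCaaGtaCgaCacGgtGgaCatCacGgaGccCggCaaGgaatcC
corto: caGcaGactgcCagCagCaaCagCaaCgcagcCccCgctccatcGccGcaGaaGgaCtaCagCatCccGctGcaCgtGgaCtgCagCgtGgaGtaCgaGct
pyd: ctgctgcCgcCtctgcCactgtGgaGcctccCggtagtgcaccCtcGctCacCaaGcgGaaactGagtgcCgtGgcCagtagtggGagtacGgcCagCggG
G or C filled the third position in 29 of 31 codons in Sh3beta, 29 of 33 in corto, 21 of 34 in pyd and 10 of 25 in krz. Of these windows, that of Sh3beta begins in the preceding intron and that of krz before its start codon, while those of corto and pyd lie wholly in their exon.

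A second set shows a triplet repeat that is described with the base composition. These are the strongest coding-exon candidates with the word CAGCAGCAG within 100 bp of the summit, with glutamine codons CAG in the reading frame in capitals. They lie in corto (the window given above), in bun (bunched, a TSC-22 family protein) at chr2L:12457915-12458015 on the minus strand, and in CG10555 at chrX:8399582-8399682 on the plus strand.
corto: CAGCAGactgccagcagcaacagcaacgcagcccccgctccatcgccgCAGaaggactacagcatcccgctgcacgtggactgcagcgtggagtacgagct
bun: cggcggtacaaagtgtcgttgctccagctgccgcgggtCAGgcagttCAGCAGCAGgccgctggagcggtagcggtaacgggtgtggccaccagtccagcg
CG10555: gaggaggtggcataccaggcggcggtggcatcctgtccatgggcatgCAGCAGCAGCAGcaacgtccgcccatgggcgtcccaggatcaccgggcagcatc
The windows of bun and CG10555 both had a GC content of 67.3%. In corto the run that meets the word extends beyond the window shown.

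Coding exons were rare among the strongest candidates and common among the weak ones, in the pooled list and in each library. Of the 1000 strongest pooled candidates, optimal regions included, 4 had the summit in CDS (0.4%, exact 95% interval 0.109 to 1.02%), and of the 1000 strongest in the replicate 2 and replicate 3 lists 4 and 8 did. The share reached 19.5% at pooled ranks 4001 to 5000 and 30% at ranks 9001 to 10000, where it was 27.2% in the replicate 2 list and 31.9% in the replicate 3 list. Coding sequence makes up 16.6% of chromosomes 2, 3, 4, X and Y, and the share was below this in every bin up to rank 4000 and above it in every bin from rank 4001 on, in all 3 lists. Over all non-optimal candidates, 7158 of 27448 had the summit in CDS in replicate 2 (26.1%, exact 95% interval 25.6 to 26.6%) and 8077 of 27333 in replicate 3 (29.6%, 29.0 to 30.1%), so the libraries differed by more than the counting interval of either.

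**Figure D1:**
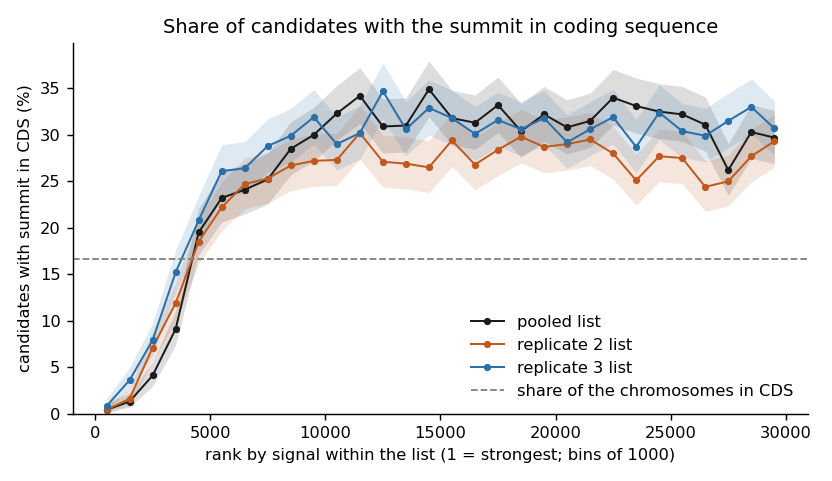
Share of candidates with the summit in CDS (vertical axis, percent) in bins of 1000 candidates by rank of signal (horizontal axis), for the pooled list and each replicate's own list, with exact 95% intervals as bands. All lists start below 1% and level off near 30%, above the dashed line at the 16.6% of the chromosomes that is CDS.

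At the boundaries of the choice the values ran on without a wide gap. The strongest coding-exon candidates that overlapped no optimal region were in krz (signal 70.3), Pde8 (69.8) and ATP8A (69.3), and the weakest optimal regions with the summit in CDS were in Gdh (72.3), RhoGAP18B (73.0) and CG10357 (74.5). In all, 19 optimal regions had the summit in CDS. On the other boundary, 260 coding-exon candidates (3.27%) had the summit within 10 bp of the end of their coding exon, and 236 of the other candidates (1.21%) lay within 10 bp of CDS. All 7950 coding-exon regions were of the same width, 410 bp, and on average 85.1% of a region was CDS.

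The 15 strongest coding-exon candidates with an overlapping candidate in both replicates had signals from 62.9 to 70.3 and lay in genes of varied function, from ribosome to eye. The krz region (3R 32051608 to 32052017) was in the first of 2 coding exons, 180 bp from a transcription start site (TSS), and ranked 5412 in the replicate 2 list and 1326 in the replicate 3 list. Pde8, a cyclic nucleotide phosphodiesterase gene (2R 23671811 to 23672220), ranked 2014 in replicate 2 and 4180 in replicate 3. ATP8A, a phospholipid flippase gene (2R 13438460 to 13438869), ranked 3041 in replicate 2 and 2749 in replicate 3. For so (sine oculis, a homeodomain protein of the eye), the region (2R 7433912 to 7434321) lay at 99.0% of the coding sequence, 5524 bp from a TSS, with a GC content of 66.2% and ranks of 4589 in replicate 2 and 2067 in replicate 3. RpLP2, which encodes a protein of the ribosomal stalk (2R 16586193 to 16586602), ranked 1448 in replicate 2 but 9538 in replicate 3. Syx17, a SNARE of autophagosome fusion (3L 4404310 to 4404719), was the reverse case, with ranks of 6857 in replicate 2 and 1657 in replicate 3. The others were in Sh3beta, corto, pyd, EMRE (a regulator of the mitochondrial calcium uniporter), Hsdl2, TBC1D23, CG17002, CG17328 and CG32344. Of the 15, 11 lay within 1 kb of a TSS and 9 in a single or first coding exon. Of all coding-exon candidates, 44.8% lay within 1 kb of a TSS, 12.6% in a single coding exon and 19.9% in the first of several. The GC content of the 15 over 201 bp around the summit was 27.4 to 66.7%. The lowest was that of CG17328 (2L 16299791 to 16300200), whose first coding exon is only 33 bp long, so that its window is mostly not coding. Among the 2153 strongest candidates of a replicate, a number equal to that of the optimal regions, 2 of the 15 were found in replicate 2 and 3 in replicate 3, and none in both.

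The coding-exon candidates were spread over many genes with few in each. They fell in 5511 of 13968 protein-coding genes (39.5% of the genes tested, which is the background against which the lists below are read). Of these genes 3816 held 1 candidate, 1190 held 2 and 505 held 3 or more. In replicate 2's own list 5123 genes had one and in replicate 3's 5561. The lists shared 3149 genes, which is 61.5% of the genes of replicate 2 and 56.6% of those of replicate 3. Longer coding sequences held one more often: 333 of 2362 genes with up to 500 bp of CDS (14.1%) and 347 of 449 genes with 5001 to 10000 bp (77.3%), and 69 of 92 genes above that (75%). Per kb of CDS the order was the opposite, with 0.444 candidates in the shortest class, 0.395 at 1001 to 2000 bp, 0.263 at 5001 to 10000 bp and 0.136 above that.

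The genes with the most coding-exon candidates include ones for proteins of cell junctions, extracellular matrix and gene regulation. pyd had 9, of which 5 had a candidate in both replicates, and replicate 2's and replicate 3's own lists had 9 and 5 there. dpy (dumpy, a giant extracellular matrix protein) had 8 over 68847 bp of CDS, a density of 0.116 per kb, and 1 of these was found in both replicates. par-1 (a kinase of cell polarity), mask (a protein with many ankyrin repeats), cic (capicua, a repressor of the HMG box family) and Hers (a repressor of histone genes) had 7 each, with 2 in both replicates for each of these genes. kis (a chromatin remodeller of the trithorax group), mtd, sima (the HIF-1 alpha protein of the hypoxia response) and osa (a subunit of the Brahma complex) had 6 each, as did 5 further genes with weaker candidates, nej among them. In mtd and osa 5 of the 6 were found in both replicates, and in kis and sima 2 were. The regions of mtd, osa and Hers were richest in GC among these genes, with means of 63.7%, 64.5% and 65.0%. Among genes with 4 or more, the density was highest in CG17746 at 3.59 per kb of CDS, CG17806 at 3.17 and CG34367 at 3.10, followed by crp (cropped, a bHLH protein) at 2.64, St3 at 2.45 and Abd-B (the most posterior Hox gene) at 2.44. In crp 4 of 5 candidates were found in both replicates, whereas in Abd-B and CG34367 none of 4 was, and the replicate 2 list had none in Abd-B against 3 in the replicate 3 list. Counts also moved with the library in other genes of these sets: the replicate 2 and replicate 3 lists had 2 and 6 in kis, 2 and 5 in sima, 4 and 7 in par-1, 3 and 5 in Hers and 1 and 3 in CG34367. CG17806 had 1 in each of these lists, beside 4 in the pooled list.

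Gene lists are described by their counts beside those of all genes, and nothing is called particular to a list. Over all protein-coding genes the density was 0.347 coding-exon candidates per kb of CDS, and the median GC content of the CDS was 53.9%. Cytoplasmic ribosomal protein genes had 39 candidates in 35 of 86 genes, a density of 0.871 per kb with a median CDS GC content of 58.9%. In the replicate 2 and replicate 3 lists 22 and 32 of these genes had one. The median CDS length of this list was 468 bp, beside 1182 bp for all genes. All genes with up to 500 bp of CDS had 0.444 candidates per kb. The values after gene names here are the signal of the gene's strongest coding-exon candidate. The strongest were in RpLP2 (66.9), sta (59.8), RpS30 (54.0) and RpL8 (53.8). Other highly transcribed housekeeping genes had one in 18 of 26 (0.777 per kb), led by Gapdh1 of glycolysis (49.2) and the elongation factor gene eEF2 (45.1). Homeobox genes had one in 56 of 73, a density of 0.686 per kb with a median CDS GC content of 60.0%. The homeobox genes with the strongest candidates were so, mirr (an Iroquois protein; 51.4), tup (an Islet protein; 49.6) and tin (tinman of the heart; 48.5). Notch pathway genes had one in 15 of 16 (0.566 per kb), with the strongest in the corepressor gene H (Hairless; 40.1), dx (deltex; 36.5), nej (the CBP acetyltransferase; 35.7) and the ubiquitin ligase gene mib1 (32.8). In the replicate 2 and replicate 3 lists 10 and 12 of these 16 Notch pathway genes had one. Of the 18 names of the Notch pathway, 2 were not matched and are not counted.

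Polycomb and trithorax group genes were near the density of all genes, with 22 of 29 genes and 0.365 per kb. Their strongest regions were in kis (47.7), Pc (Polycomb; 42.9), Scm (42.7) and the bromodomain gene fs(1)h (40.6). Cuticle protein genes had one in 38 of 133 (0.442 per kb), chorion and yolk genes in 5 of 16 (0.396; 9 genes in the replicate 2 list and 4 in the replicate 3 list), heat shock genes in 8 of 20 (0.318) and basement membrane and integrin genes in 16 of 19 (0.304). The lists of structural and adhesion genes were lower. Over all genes density also went down with CDS length, to 0.263 per kb at 5001 to 10000 bp. The median CDS length was 7978 bp in the cytoskeletal list, 5841.5 bp in the adhesion list and 1553 bp in the sarcomere list. Over all genes it was 1182 bp. The part of CDS length in the densities of the lists was not tested. Large cytoskeletal and synaptic genes had 0.185 per kb (19 of 27 genes, among them the myosin gene jar at 42.8 and the bruchpilot gene brp of active zones at 41.4), cadherin and giant adhesion genes 0.171 (20 of 34, among them Ten-m at 55.6 and the E-cadherin gene shg at 39.8) and sarcomere genes 0.169 (16 of 24, among them Zasp52 at 35.4 and Msp300 at 34.8). The strongest candidate of the cytoskeletal list was in rdx (55.9), which in the fly is roadkill, an adaptor of a ubiquitin ligase and no cytoskeletal gene, and the count includes it. Genes on the chemoreceptor list had 0.150 per kb in 33 of 179 genes, and their median CDS GC content was 47.3%. Y chromosome fertility genes had one in 1 of 11, kl-3 (19.7), with a median CDS GC content of 37.9%. No coding-exon candidate lay in the 111 replication-dependent histone genes. The repeated histone array (2L 21416953 to 21541681) held no candidate of any kind in the pooled list or in either replicate's list, so this count says nothing of coding exons. The sources used here do not give how reads that match several copies were treated.

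The btn gene (3R 22586149 to 22586625, 474 bp of CDS) held no candidate in the pooled list, and none with the summit in CDS in either replicate's list. Its neighbour Efa6, an exchange factor for Arf GTPases, held 14 candidates, 3 of which overlapped an optimal region, and none of the 14 had the summit in CDS, but the replicate 2 list had 1 coding-exon candidate in Efa6 (rank 15638) and the replicate 3 list 2 (the stronger at rank 15280). The other neighbour, loco (a regulator of G protein signalling in glia), had 2 coding-exon candidates of 9 candidates in the gene, the stronger with a signal of 35.7, and 3 and 4 coding-exon candidates in the replicate 2 and replicate 3 lists.

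Within genes the coding-exon candidates lay towards the start of the coding sequence and near a TSS. Of 10 equal parts of the coding sequence, part 1 held 1116 of them (14.0%) and part 2 held 11.6%, where an even spread gives 10%, and parts 3 to 10 held 8.76 to 10.2%. The replicate lists had 13.1% and 13.9% in part 1. First coding exons of several held 19.9% of the candidates, against 14.2% of all coding bp, and internal coding exons 40.9%, against 50.8%. The corresponding values were 18.9% and 42.5% in the replicate 2 list and 20.1% and 42.2% in the replicate 3 list. By exon length, exons of 501 to 1000 bp held 32.2%, against 25.9% of coding bp. Exons above 2000 bp held 8.89%, against 14.6% of coding bp, and exons of up to 200 bp 8.97%, against 13.4%. The median distance to the nearest TSS was 1159 bp for coding-exon candidates, 2201 bp for the other candidates and 1521 bp for all coding bp. Within 1 kb of a TSS lay 44.8% of the coding-exon candidates, 35.2% of the others and 36.0% of coding bp, and the replicate lists gave 42.5% and 45.5% for coding-exon candidates.

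**Figure D2:**
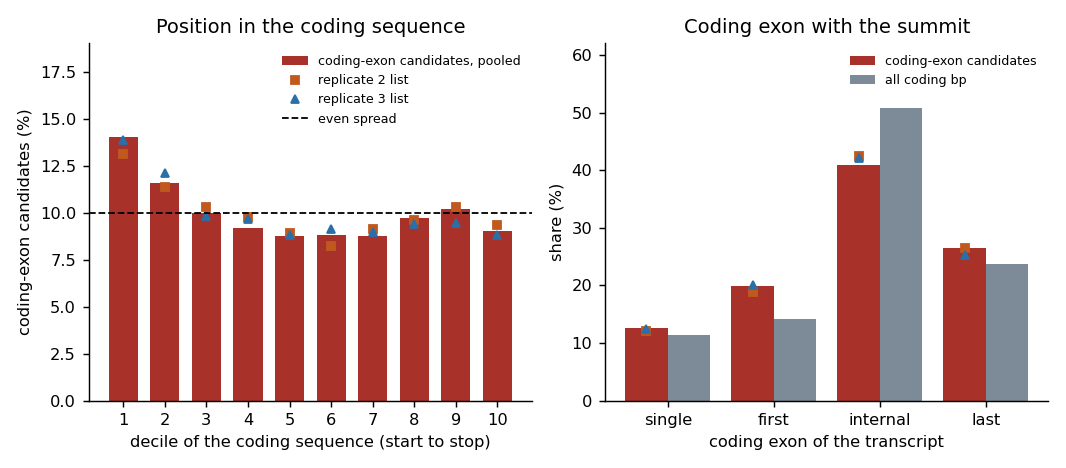
Left, share of coding-exon candidates in each of 10 equal parts of the coding sequence from start to stop, as bars for the pooled list and symbols for each replicate's list, with a dashed line at an even spread. Right, share of coding-exon candidates by the coding exon that holds the summit, beside the share of all coding bp in such exons. Part 1 holds 14.0%, and internal exons hold 40.9% of candidates beside 50.8% of coding bp.

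Coding-exon candidates were richer in G and C than the other weak candidates, and also than coding sequence in general. GC content over 201 bp around the summit was 56.4% ± 6.50 (SD, n = 7950 regions) in coding-exon candidates and 43.2% ± 7.89 (SD, n = 19444 regions) in the others. Each replicate's own list had the same order, at 55.7% and 42.7% in replicate 2 and at 55.7% and 43.3% in replicate 3. Coding exons are rich in GC by themselves: the mean over all coding positions was 51.6%, so the candidates stood 4.86 percentage points above it. Candidates in introns stood 2.50 points above all intron positions, at 42.6%, and candidates between genes 2.94 points above all intergenic positions, at 43.0%. The difference between coding-exon and other candidates was positive on 2L, 2R, 3L, 3R, X and 4, from 12.3 points on 2R to 15.9 on X among the long arms, and 5.24 points on chromosome 4, whose 46 candidates had a mean GC content of 44.1%. It also widened with signal. With the candidates split by signal into 5 classes of like size, the coding-exon candidates of the weakest class had a mean of 55.4% and the others 43.6%, and in the strongest class the coding-exon candidates had 58.4% and the others 41.7%.

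The density of coding-exon candidates increased with local GC content over the whole range. Per Mb of coding positions there were 72.8 candidates where the 201 bp around the position had a GC content below 40%, 167 at 45 to 50%, 480 at 55 to 60% and 1462 at 65% or more. In the replicate 2 list the lowest and highest classes had 103 and 1135 per Mb, and in the replicate 3 list 98.4 and 1221. Coding positions within 1 kb of a TSS had 99.1 candidates per Mb in the lowest class and 1776 in the highest, and those farther away 56.0 and 1332, so the increase was present at both distances. The other candidates, per Mb of noncoding positions, numbered 125 in the lowest class and 535 in the highest. Over all distances, the density in the pooled list was lower in coding than in noncoding sequence in each class below 50% GC. In each class from 50% on it was higher. Coding positions within 1 kb of a TSS had 179 candidates per Mb at 40 to 45% and 236 at 45 to 50%. Noncoding positions, not split by distance, had 175 and 204. The highest class is small, with 0.432 Mb of coding positions, 631 coding-exon candidates and 23 others. The lists hold no reads or control coverage, so whether read recovery also varied with GC content was not tested.

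**Figure D3:**
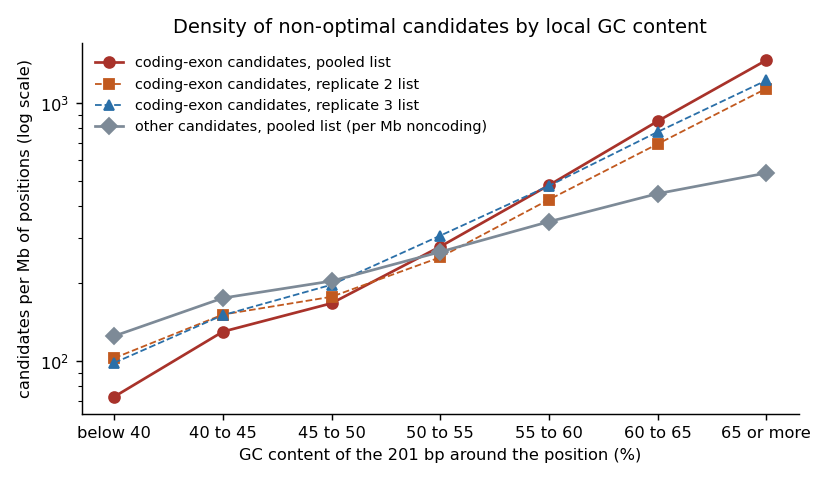
Candidates per Mb of positions (vertical axis, log scale) by GC content of the surrounding 201 bp (horizontal axis), for coding-exon candidates of the pooled list and of each replicate's list and for other pooled candidates per Mb of noncoding positions. Coding-exon candidates go from 72.8 to 1462 per Mb, and the others from 125 to 535.

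The high GC content was limited to about 400 bp on each side of the summit. In coding-exon candidates it averaged 56.5% within 100 bp of the summit, 50.5% at 200 to 300 bp, 47.4% at 300 to 400 bp and 45.4% at 400 to 500 bp, and it was 45.2% at 800 to 1000 bp upstream and 44.9% downstream. Around all coding positions taken as centres, it fell off more slowly, to 48.2% at 200 to 300 bp, 47.3% at 300 to 400 bp and 46.6% at 400 to 500 bp. Thus the candidates were 4.86 points above the average coding position at the centre and below it at 400 to 600 bp, with 45.2% at 500 to 600 bp beside 46.1% for all coding positions. At 800 to 1000 bp upstream both were at 45.2%. Both replicate lists had this shape, with 55.7% within 100 bp in each, 45.6% at 400 to 500 bp in replicate 2 and 45.7% in replicate 3, beside 46.6% for all coding positions. Intron and intergenic candidates differed less with distance, at 42.6% and 43.0% within 100 bp and 40.9% and 41.1% at 400 to 500 bp. For scale, a region is 410 bp wide with the summit near its middle. The sequence around candidates and around all coding positions also differed in CDS content. Within 100 bp, 91.7% was CDS for candidates and 88.8% for all coding positions. At 400 to 420 bp downstream the values were 55.6% and 63.7%. At 800 to 1000 bp they were 40.5% and 51.03% upstream and 46.4% and 51.05% downstream. The part of CDS content in the lower GC content of the flanks was not tested.

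**Figure D4:**
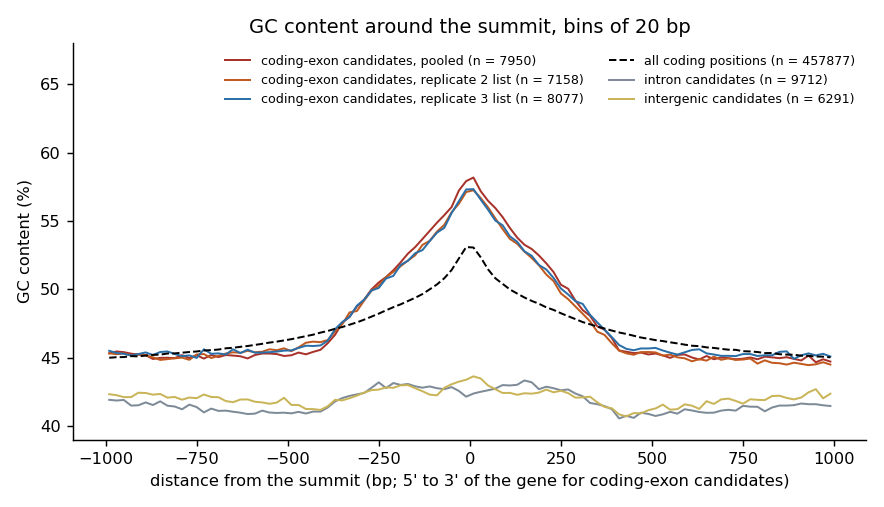
Mean GC content (vertical axis, percent) in bins of 20 bp by distance from the summit (horizontal axis, bp, with the gene's 5′ side left for coding-exon candidates). Lines stand for coding-exon candidates of the pooled list and of each replicate's list, for all coding positions as centres (dashed, not oriented) and for intron and intergenic candidates. The coding-exon lines peak at the summit and are flat from about 400 bp on.

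Candidates were also richer in G and C than the coding sequence of their own gene as a whole. Codons of the window in the coding exon had a GC content 2.19 ± 4.21 percentage points above that of the whole coding sequence of the same transcript (SD, n = 7902 regions with at least 20 codons), and 71.1% of regions were above it. The value was 1.91 points in the replicate 2 list and 1.80 in the replicate 3 list. All codon positions took part. The first position had a GC content of 59.5% in the candidates' codons, 56.8% over their own genes and 55.4% over all CDS. The second had 45.3%, 42.5% and 41.4%, and the third 68.9%, 64.8% and 63.1%. The amino acids encoded differed too. Alanine was 1.22 times as frequent as in all CDS, glycine 1.20 times and proline 1.13 times, which are encoded by codons that begin with a pair of G or C. Isoleucine was 0.807 times as frequent, phenylalanine 0.828 times and lysine 0.876 times, all with codons rich in A and T. The ratios for alanine were 1.19 in both replicate lists and those for isoleucine 0.836 and 0.841.

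Short words differed between coding-exon and other candidates. Each was looked for on either strand in the 201 bp around the summit. CAGCAGCAG, the word shown above, was in 563 coding-exon candidates (7.08%, exact 95% interval 6.53 to 7.67%) and 371 others (1.91%, 1.72 to 2.11%), with 3.41% over all non-optimal candidates. Windows centred on coding positions in general held it in 4.66% of cases, a value between those of both groups. Within the coding exon of the summit it stood on the coding strand in 488 candidates, in 336 of which (68.9%) its first match was in the frame that reads glutamine. GGCGGCGGC, which reads glycine in 1 frame, was in 3.38% of coding-exon candidates, 0.566% of the others and 1.65% of coding windows. The other words were mostly rarer in coding-exon candidates. GAGAGAG, which GAGA factor is known to bind, was in 1.07% of coding-exon candidates and 4.88% of the others, close to the 1.04% of coding windows, and CACACAC was in 1.98% and 9.61%, with 1.83% of coding windows. TAATTA, the core word of many homeodomain proteins, was in 1.89% of coding-exon candidates and 11.7% of the others, with 3.14% of coding windows. Its letters in another order, ATTAAT, gave 2.31% and 10.9%, with 4.13% of coding windows. CAGGTAG, a word of early embryonic enhancers, was in 2.38% of coding-exon candidates, 1.19% of the others and 1.91% of coding windows. For each of the 7 words, coding-exon and other candidates were in the same order in both replicate lists. A match is a string of letters and no sign of binding.

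In the pooled list 41.6% of the coding-exon candidates and 47.8% of the other weak candidates overlapped a candidate in each library's own list. The gap depended on the list it was read from. Of the replicate 2 list, 45.2% of coding-exon candidates (44.0 to 46.3%) and 45.5% of the others (44.9 to 46.2%) overlapped a replicate 3 candidate, with overlapping intervals. Of the replicate 3 list, 41.1% of coding-exon candidates (39.99 to 42.15%) and 48.4% of the others (47.7 to 49.1%) overlapped a replicate 2 candidate. For the pooled list, a candidate of replicate 2 overlapped 63.7% of the coding-exon candidates by at least 1 bp (exact 95% interval 62.6 to 64.8%), against 69.6% of the others (68.9 to 70.2%), with 67.9% over all non-optimal candidates. A candidate of replicate 3 overlapped 71.7% (70.7 to 72.7%), against 72.5% (71.9 to 73.2%) of the others, with 72.3% over all. Both replicates had one in 3310 coding-exon candidates, or 41.6% (40.6 to 42.7%), against 47.8% (47.1 to 48.5%) of the others, with 46% over all. The gap was wider for replicate 2 than for replicate 3. Replicate 3 alone had one for 30.1% of the coding-exon candidates and 24.7% of the others, and replicate 2 alone for 22.1% and 21.8%. For 497 coding-exon candidates (6.25%) and 5.71% of the others, neither replicate had one. The pooled list was made from the same libraries, so these overlaps are not independent of it. For comparison, 21.1% of windows of region width centred on coding positions overlapped a replicate 2 candidate, 23.5% a replicate 3 candidate and 9.00% both, where windows that touch an optimal region were left out. Windows centred on noncoding positions gave 14.0%, 13.25% and 5.76%. Among coding windows the share for both went from 2.76% below 40% GC to 12.3% at 55 to 60% and 27.2% at 65% or more.

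The overlap was higher at higher pooled signal, and within each of the 5 signal classes the intervals of both groups overlapped for the share found in both replicates. In the strongest class they did not overlap for replicate 2, which had a candidate for 91.7% of coding-exon candidates (89.8 to 93.3%) and 94.5% of the others (93.8 to 95.2%). In the weakest class 15.1% of coding-exon candidates and 15.4% of the others had a candidate in both replicates. In the middle class the shares were 38.2% of coding-exon candidates and 38.6% of the others, and in the strongest class 88.8% (86.6 to 90.7%) and 91.1% (90.2 to 91.9%). The strongest class holds 997 coding-exon candidates, which is 18.2% of its candidates, whereas coding-exon candidates make up 30.4 to 32.7% of the other classes. Within that class signal still differed, with medians on 2L, 2R, 3L and 3R of 41.8 for coding-exon candidates and 46.0 for the others. Overlapping intervals do not show that shares are equal. Coding-exon candidates found in both replicates had a median signal of 30.9 and a mean GC content of 57.4%, those found in replicate 2 alone 23.6 and 55.9%, those in replicate 3 alone 24.0 and 55.9%, and those in neither 20.9 and 54.9%. In the others GC content went the other way, with 42.6% in those found in both and 43.7% in those found in neither. Within 1 kb of a TSS 46.8% of coding-exon candidates and 58.3% of the others were found in both replicates, and farther away 37.5% and 42.1%. Other classes of weak candidates had shares of 60.8% for 5′ UTRs, 46.9% for intergenic sequence, 45.8% for introns and 40.9% for 3′ UTRs.

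**Figure D5:**
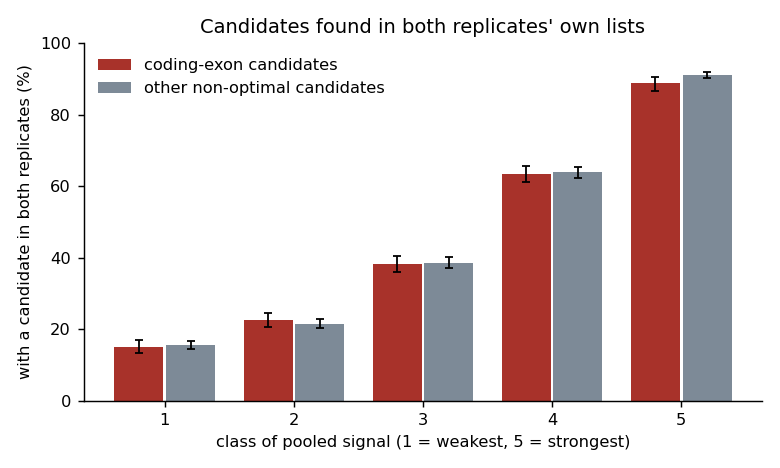
Share of candidates with an overlapping candidate in both replicates (vertical axis, percent, exact 95% intervals as bars) by class of pooled signal (horizontal axis, 1 weakest to 5 strongest, of like size), for coding-exon and other non-optimal candidates. The shares are 15.1% and 15.4% in the weakest class and 88.8% and 91.1% in the strongest, and the intervals overlap in every class.

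Few coding-exon candidates were strong in a single library. An overlapping candidate among the 2153 strongest of replicate 2 was found for 19 coding-exon candidates (0.239% of 7950) and 368 others (1.89% of 19444). Among the 2153 strongest of replicate 3 it was found for 29 coding-exon candidates (0.365%) and 411 others (2.11%). In both replicates it was found for 0 coding-exon candidates and 14 others (0.072%). The choice of regions outside the optimal list removed most regions that are strong in both libraries, so these counts are description only.

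The overlap with both libraries was lower on the X chromosome for coding-exon candidates. Both replicates had a candidate for 34.8% of the 1195 coding-exon candidates on X (32.1 to 37.6%), against 43.0% (41.8 to 44.2%) of the 6708 on 2L, 2R, 3L and 3R. Among the other candidates the share was 48.0% on X and 47.9% on these arms. The gap was wider for replicate 2, which had a candidate for 57.0% of the coding-exon candidates on X and 64.9% of those on the arms, while replicate 3 had 69.5% and 72.2%. In each signal class the share of coding-exon candidates in both was lower on X, with 10.2% on X and 16.2% on the arms in the weakest class and 83.0% and 89.5% in the strongest. The intervals overlapped in all but the weakest class, and there the others also had a lower share on X, with 76 of 635 on X and 509 of 3148 on the arms. The median signal was 24.9 on X and 25.8 on the arms. Mean GC content of the coding-exon candidates was 58.4% on X and 56.2% on the arms, and the part of signal and GC content in this difference was not tested.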

How the data were processed

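ChIP-seq was done on 2 biological replicates of 1 group. The authors' deposited files used here were 4 peak lists in narrowPeak layout in build dm6: the candidates of each replicate, those of the pooled replicates and the optimal regions. Per the deposited README files, candidates derive from alignments and a control file, and optimal regions from the candidate lists. The sources used here do not give the aligner, caller and threshold. The signal column is the authors' deposited peak signal, used only to rank and split regions within a list. The deposited −log10 q-value was not used. The summit is the start plus the deposited summit offset (the offset counts bp) plus 1. Lists in another build were not used, and nothing was converted. No list gives reads, so depth is unknown.

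Gene models came from Ensembl release 115 (BDGP 6.54) and sequence from RefSeq Release 6. A position in the coding sequence was taken in the canonical transcript where it held the summit (97.8% of regions). Of 13968 canonical coding sequences, 406 hold an in-frame stop before the end and 35 have a length that is no multiple of 3. They were kept. Overlap means at least 1 bp, and 564 coding-exon regions overlap the next one, so regions are not all separate. GC content and the 7 words were read within 100 bp of the summit, and coding windows were centred on every 50th coding position. Shares have exact (Clopper-Pearson) 95% intervals, which cover counting error only. No test was made, since 1 group of 2 libraries allows none. Coding positions and overlaps were tested on simulated data, where 2000 of 2000 coding bases and 3000 of 3000 overlaps were recovered.

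Members and the 16 gene lists were chosen with earlier results of these data known. Named genes are btn, Efa6 and loco, the genes of the 15 strongest coding-exon candidates found in both replicates, the 10 with most of them (ties by signal), the 6 densest among genes with at least 4, and up to 4 per list with the strongest candidate. Sequences were taken only from candidates outside chromosome arm 2R. The window of CG17328, mostly not coding, is not printed. The comparison of X with the long arms, the split by GC content and distance to a TSS, the GC profiles and the window coverage were chosen after seeing the data. Alternatives were each replicate's list alone, the region in place of the summit, only strong candidates, distance from a TSS or optimal region, other overlap rules and other windows. Python 3.11.15, pandas 2.3.3, numpy 2.4.6 and scipy 1.17.1 were used.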

Additional observations from a re-analysis of the deposited data

How the results depend on the processing

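For 11 results, 72 alternative values were computed, and 27 of them stayed close to the main one: within 1.5 times for counts, within the SD of the libraries' own lists for means, medians and other shares, and within the exact interval for overlaps. This SD rests on 2 values. For mean GC content these were 55.74% and 55.73%, with an SD of 0.00613, so even 56.48% beside the main 56.45% was not counted as close. The count of 27 therefore depends on these limits. Of the results, the GC difference and the difference in overlap have a sign, and neither changed it. With each library's list alone, the coding share was 26.1 to 29.6%, mean GC content 55.7%, the GC difference 12.4 to 13.0 points, the median position 0.452 to 0.458 of the coding sequence and the share with CAGCAGCAG 6.65 to 6.86%. Overlap of a region with both replicates needs both lists, so it has no such value. The nearest one, overlap of one library's candidates with the other's, gave 45.2% of coding-exon candidates and 45.5% of the others in the replicate 2 list, and 41.1% and 48.4% in the replicate 3 list, so a gap wider than the intervals was seen in the replicate 3 list and not in the replicate 2 list. Regions with summits over 1 kb from every TSS numbered 4391 in 3026 genes: 25.9% of candidates, mean GC 57.0%, difference 13.9 points, median position 0.605, CAGCAGCAG 9.16%, overlap 62.4% (replicate 2), 67.5% (replicate 3) and 37.5% (both), and a difference in the last of -4.59 points. With signal at or above the median there were 3641 in 3031 genes, with GC 57.3%, difference 14.5 points, median position 0.418, CAGCAGCAG 7.88% and overlaps of 78.9%, 86.0% and 65.3%. With at least 50% of the region in CDS mean GC was 56.4% and the median position 0.473. Over 1 kb from every optimal region they were 56.5% and 0.463, with CAGCAGCAG in 7.24%. Windows of 50 bp and 200 bp on each side gave GC of 57.4% and 54.9%, differences of 14.1 and 11.8 points and CAGCAGCAG in 4.03% and 11.9%. An overlap of 50% of both regions gave 54.8%, 62.8% and 29.1%, with a difference of -4.75 points, and summits within 100 bp gave 48.8%, 57.3% and 21.5%. The position and the share with the word follow the setting by construction where TSSs or windows change. For the others the cause was not tested. Depth is unknown and sets what these lists can show. No paired analysis was possible because there is 1 group.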
